A study of Mus musculus with 19 samples.

Results

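The 10 genes described here are Hif1a, which encodes the oxygen-regulated subunit of hypoxia-inducible factor 1 (HIF-1), and 9 genes that carry glucose into glycolysis and lactate out of the cell. They are the glucose transporter gene Slc2a1, the hexokinase genes Hk1, Hk2 and Hk3, the phosphofructokinase gene Pfkp, the regulator gene Pfkfb3, the pyruvate kinase gene Pkm, the lactate dehydrogenase gene Ldha and the lactate transporter gene Slc16a3. They were chosen by name, with earlier results of these data known. All 10 were found among the 56980 genes of the count table, and all 10 passed the filter on low counts. RNA was sequenced from CD11b+ cells, isolated from the brain with magnetic beads (MACS), of 19 male mice aged 3 to 4 months. Microglia, the resident macrophages of the brain, carry the integrin CD11b, as do blood myeloid cells. The mice were PARK7/DJ-1 KO animals and their wildtype (WT) littermates, and 6 h before sampling they had received either lipopolysaccharide (LPS), a bacterial cell wall component, at 4 µg/g body weight into the peritoneum, or the saline vehicle (PBS). There were 5 KO and 5 WT mice with LPS, and 5 KO and 4 WT mice with PBS. The KO carries a gene trap in Park7 in every cell of the body, on a line backcrossed to C57BL/6NCrl, so that the genotype of the sorted cells cannot be told apart from that of the rest of the animal.

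In glycolysis, hexokinase traps glucose as glucose-6-phosphate, phosphofructokinase commits it to breakdown, and pyruvate kinase yields pyruvate, which lactate dehydrogenase can turn into lactate. HIF-1 is known for switching on most of these steps in low oxygen, when its alpha subunit escapes hydroxylation by prolyl hydroxylases and degradation through the von Hippel-Lindau protein. In macrophages, Toll-like receptor signals are also known to raise Hif1a mRNA, and activated macrophages and microglia rely more on glycolysis. DJ-1, the product of Park7, is a small protein that protects against oxidative stress.

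Library depth ranged from 11936364 to 22788884 counts, so that 3 counts in a library equal 0.139 to 0.256 CPM, the counts of a gene scaled to a common library total. Values in CPM are scaled with edgeR's TMM factors. Every member had at least 216 counts in every mouse. Park7 itself was at 0.457 to 2.59 CPM in KO mice with PBS and 1.69 to 5.38 CPM in KO mice with LPS, against 20.6 to 25.2 and 22.3 to 32.1 CPM in WT mice. No KO library overlapped a WT library in this check of the labels. Microglial markers were the most abundant of 12 marker lists. The sum of the 9 matched genes lay at 25267 to 39716 CPM in WT and 26763 to 40571 CPM in KO mice with PBS, and at 10565 to 17005 and 10926 to 16955 CPM with LPS, and all 9 were called lower with LPS in both genotypes. In the same contrasts, 7 of the 8 monocyte markers were called higher, and their sum lay at 171 to 194 CPM in WT and 144 to 201 CPM in KO mice with PBS, and at 451 to 732 and 286 to 719.6 CPM with LPS. Of the 10 neutrophil markers, 4 were called higher and 1 lower in WT, and 5 and 1 in KO mice. Their sum lay at 443 to 660 CPM in WT and 418 to 706 CPM in KO mice with PBS. With LPS it lay at 508 to 786 and 299 to 777 CPM, and so overlapped in both genotypes. Over all genes tested, 18.4% were called higher and 17.4% lower in WT, and 20.1% and 19% in KO mice. Of the 8 markers of border-associated macrophages 5 were called lower in both genotypes, and of the 9 endothelial markers 4 were called lower in both and 1 higher in KO mice. B cell markers summed to 154 to 288 CPM in WT and 192 to 316 CPM in KO mice with PBS, and to 18.5 to 34.8 and 18.2 to 33.3 CPM with LPS, but only 1 of the 5 genes passed the filter on low counts, and it was called lower in both. In these bulk samples, fewer cells of a type and less RNA per cell cannot be told apart. Libraries also held RNA of other brain cells. Oligodendrocyte markers summed to 558 to 11377 CPM and endothelial markers to 87.8 to 1136 CPM, with the lowest endothelial sum in KO mouse 5 with LPS. The part of these shifts in the changes below was not tested, and the relations of the 10 genes to the microglial and endothelial sums that passed the correction are given beside each gene.

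Hif1a (ENSMUSG00000021109, chr12:73948149-73996321, plus strand) rose with LPS in both genotypes. It lay at 148, 154, 172 and 187 CPM in the WT mice with PBS and at 329.6, 408, 537, 615 and 862 CPM in those with LPS. In KO mice the values were 159, 161, 166, 174 and 211 CPM with PBS and 496, 589, 616, 659 and 659.9 CPM with LPS. Neither pair of groups overlapped, and the WT mice with LPS spread the most, from 329.6 to 862 CPM. The rise was 3.33-fold in WT (log2FC 1.73, SE 0.21, adjusted p = 1.90e-06 by the quasi-likelihood test of edgeR, adjusted after Benjamini-Hochberg over 18739 genes) and 3.46-fold in KO mice (log2FC 1.79, SE 0.19, adjusted p = 3.86e-07). The amount of HIF-1α protein, which is set mainly by degradation, was not measured. Among the 9 PBS mice Hif1a was higher where the summed microglial markers were higher (Pearson's r = 0.90, exact permutation p = 1.85e-04, adjusted 0.0025, Spearman's rho = 0.90, p = 0.002, adjusted 0.016, r = 0.84 without the 2 mice farthest from the median sum). In the 10 LPS mice the value had the other sign and did not pass the correction (Pearson's r = -0.50, permutation p = 0.14, adjusted 0.24, Spearman's rho = -0.48, p = 0.17, adjusted 0.30, r = -0.15 without the 2 farthest mice). The PBS relation is 1 of 40 relations computed for the 10 genes with microglial and endothelial marker sums, within the PBS and within the LPS mice, of which 11 passed the correction by r. Both quantities of each relation come from 1 library and share its total. Across the 19 libraries, the gene whose centred log2 CPM was nearest to Hif1a was Gm20186, an uncharacterised locus, at a root mean square difference of 0.13, followed by Pwp1 (0.18) and Susd6 (0.18). Ldha was the nearest member, at 0.31.

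**Figure D1:**
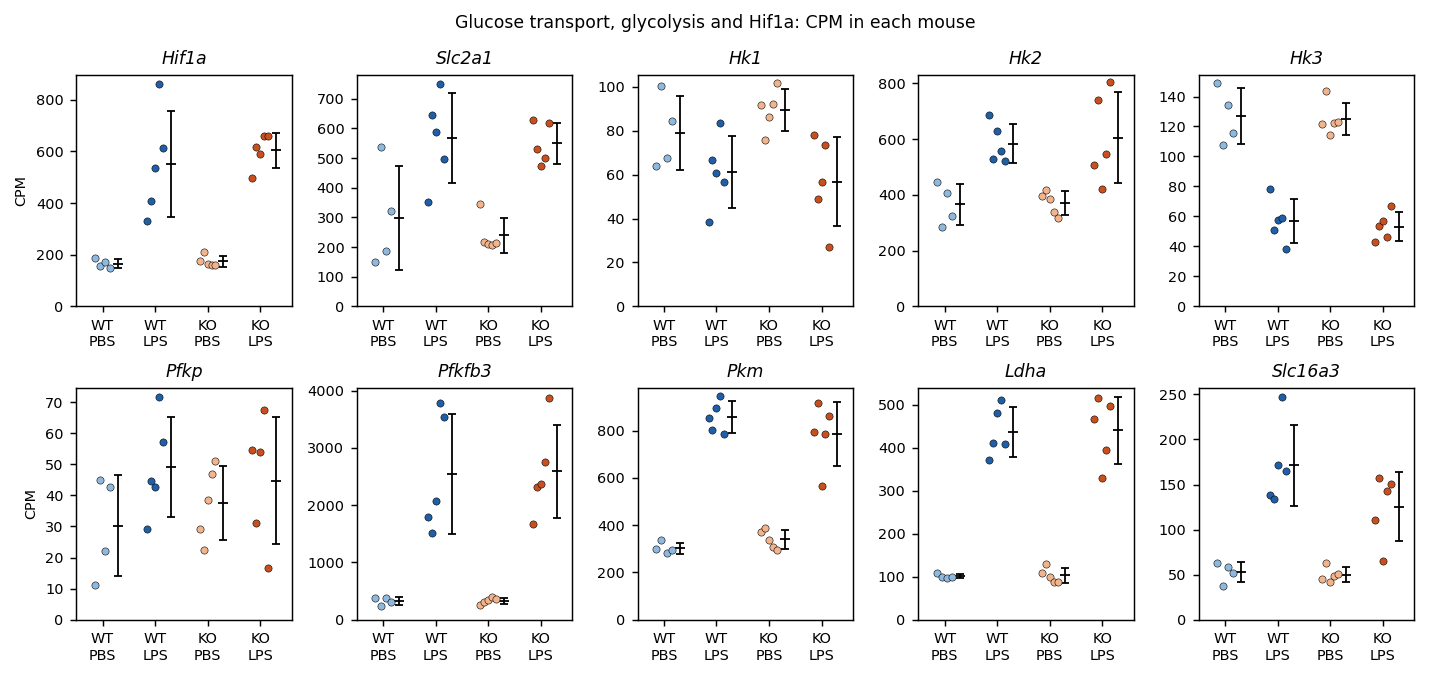
Level of each of the 10 genes in each mouse, in CPM (linear axes from 0), by genotype and treatment. Each point is 1 mouse, and the bar beside the points is the mean ± SD. Hif1a, Hk2, Pfkfb3, Pkm, Ldha and Slc16a3 separate LPS from PBS in both genotypes, Hk3 separates them in the opposite direction, and Hk1 and Pfkp overlap between LPS and PBS, as does Slc2a1 in WT mice.

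Of the 10 genes, 7 were called higher and 1 lower with LPS in WT mice, and 7 higher and 2 lower in KO mice, where a call needs an adjusted p below 0.05 and a log2FC of at least 0.5 in size. Over all 18739 genes tested, 18.4% were called higher and 17.4% lower in WT, and 20.1% and 19% in KO mice. The median log2FC of the 10 genes was 1.21 in WT and 1.20 in KO mice, against -0.06 and -0.01 over all genes. The LPS and PBS groups of the WT mice did not overlap in 7 of the 10 genes, and those of the KO mice in 8. Over all genes the groups did not overlap in 37.8% of genes in WT and 32.8% in KO mice. The 7 genes that rose in WT were the same as in KO mice, namely Hif1a, Slc2a1, Hk2, Pfkfb3, Pkm, Ldha and Slc16a3. Hk3 fell in both, and Hk1 was called lower in KO mice alone.

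HIF-1 binds hypoxia response elements with the core ACGTG or GCGTG. The 250 bases before the start of each gene's canonical transcript (GRCm39, GENCODE M39) were searched for both words on both strands. At least 1 match was found in 8 of the 10 genes and in 50.6% of 14469 promoters of tested protein-coding genes, and the word ACGTG was found in 5 of the 10 and in 20.1% of all. Pfkfb3 and Pkm held neither word in this window. Both words hold CG, and the windows of the 10 genes differed from the rest in G and C. These letters made up 58.0 to 70.4% of a window except in Hk3 (47.2%) and Pfkfb3 (51.6%), against a median of 56.4% over all promoters. The part of this difference in the number of matches was not tested. The stretches with ACGTG are those of Hif1a, Hk2 and Ldha, which rose, of Hk3, which fell, and of Pfkp, which was not called. Slc2a1 and Slc16a3, which rose, and Hk1, called lower in KO mice alone, held GCGTG and not ACGTG. Capitals mark ACGTG read on either strand, 5′ to 3′ in the direction of the gene, and the palindrome CACGTG holds the word on both strands.
Hif1a, chr12:73954494-73954523, plus strand: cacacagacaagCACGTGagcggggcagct
Hk2, chr6:82751645-82751673, minus strand: agccacggaacaCACGTcccaactctggc
Hk2, chr6:82751471-82751499, minus strand: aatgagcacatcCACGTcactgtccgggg
Hk3, chr13:55169338-55169366, minus strand: actacattttgaCACGTtgcctagttcaa
Pfkp, chr13:6699107-6699136, minus strand: agcctctgcgccCACGTGgtgggctgacag
Ldha, chr7:46495071-46495100, plus strand: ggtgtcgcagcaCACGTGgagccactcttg
Ldha, chr7:46495175-46495203, plus strand: gcctaCACGTGggttcccgCACGTccgct
Ldha held 3 such sites, the second and the third close together, and the stretch with that pair lies in the first exon of another Ldha transcript. A match is a description of the letters, and binding was not measured.

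The first member on the path of glucose is Slc2a1 (ENSMUSG00000028645, chr4:118965908-118996365, plus strand), which encodes GLUT1, the main glucose carrier of the blood-brain barrier and of many glia. In WT mice with PBS, Slc2a1 lay at 151, 186, 321 and 537 CPM, and with LPS at 350.5, 497, 589, 646 and 751 CPM. The KO mice were at 208, 211, 215, 217 and 347 CPM with PBS and 475, 499.8, 531, 618 and 627 CPM with LPS. The WT groups overlapped through WT mouse 2 with PBS, the highest of its group, while the KO groups did not overlap. The rise was 1.90-fold in WT (log2FC 0.92, SE 0.30, adjusted p = 0.017, edgeR) and 2.30-fold in KO mice (log2FC 1.20, SE 0.28, adjusted p = 0.0015). The WT call was lost when WT mouse 1 or WT mouse 3 with PBS was left out (log2FC 0.71 and 0.75, edgeR adjusted p = 0.059 and 0.065). Without WT mouse 2 with PBS the log2FC was 1.39, the highest of the range of 0.71 to 1.39 over the mice left out. In the 9 PBS mice, Slc2a1 moved with the summed endothelial markers (Pearson's r = 0.97, exact permutation p = 5.51e-06, adjusted 2.20e-04, Spearman's rho = 0.98, p = 4.96e-05, adjusted 9.33e-04). The relation kept r = 0.98 without the 2 mice farthest from the median marker sum. In the 10 LPS mice the same relation did not pass the correction (Pearson's r = 0.43, permutation p = 0.21, adjusted 0.33, Spearman's rho = 0.67, p = 0.039, adjusted 0.14). Its sign was positive in the 5 WT and negative in the 5 KO mice, a difference that was not tested. The sign also differed between the genotypes in the LPS mice for Hif1a, Pfkfb3, Pkm, Ldha and Slc16a3 with both sums. For Slc2a1 it differed with the microglial sum as well. For Hk1, Hk2, Hk3 and Pfkp the sign was the same in both genotypes with both sums. None of these differences was tested. For Slc2a1 with the endothelial sum over both genotypes, r was 0.82 without the 2 farthest mice, 1 of which was KO mouse 5. KO mouse 5 with LPS had 618 CPM of Slc2a1 beside the lowest endothelial sum, 87.8 CPM.

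Several other carriers of the family had larger log2FC. Slc2a5, which encodes the fructose transporter GLUT5 and is known as a microglial gene, fell from a mean of 535 to 30.2 CPM in WT (log2FC -4.14, SE 0.35) and from 482 to 45.4 CPM in KO mice (log2FC -3.41, SE 0.33). Slc2a6 rose from 3.43 to 48.9 CPM in WT (log2FC 3.83) and Slc2a3, which encodes the high-affinity carrier GLUT3, from 16.4 to 51.0 CPM (log2FC 1.64). Divided by the length of each gene's exons and taken as a share of Slc2a1, Slc2a3, Slc2a5, Slc2a6, Slc2a8, Slc2a9 and Slc2a12 together, Slc2a1 went from 29.3% ± 13.8 (SD, n = 4) to 78.0% ± 5.54 (SD, n = 5) in WT and from 27.0% ± 4.35 (SD, n = 5) to 76.8% ± 5.67 (SD, n = 5) in KO mice. The share of Slc2a5 went from 60.2% ± 14.9 (SD, n = 4) to 5.02% ± 2.91 (SD, n = 5) in WT and from 59.1% ± 5.60 (SD, n = 5) to 6.90% ± 4.10 (SD, n = 5) in KO mice. The leading carrier transcript per length was thus Slc2a5 in the PBS groups and Slc2a1 in the LPS groups by their means, although in WT mouse 2 with PBS Slc2a1 led. The choice of these genes and of the families below was made after their values were seen, and no test was run on the shares.

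The 3 hexokinase genes took different courses. Hk2 (ENSMUSG00000000628, chr6:82699740-82751469, minus strand), which encodes the inducible form bound to mitochondria, lay at 286, 325, 407 and 446 CPM in WT mice with PBS and 520.2, 528, 559, 629 and 686 CPM with LPS. In KO mice it lay at 317, 338, 385, 395 and 418 CPM with PBS and 420.0, 507, 548, 742 and 806 CPM with LPS. In neither genotype did the groups overlap, though the gap in KO mice was narrow, and the rise was 1.60-fold in WT (log2FC 0.67, SE 0.18, adjusted p = 0.0047, edgeR) and 1.63-fold in KO mice (log2FC 0.71, SE 0.17, adjusted p = 0.0017). Hk3 (ENSMUSG00000025877, chr13:55153798-55169276, minus strand), a hexokinase gene of myeloid cells, lay at 108, 116, 134 and 149 CPM in WT mice with PBS and 38.0, 50.7, 57.3, 58.9 and 78.4 CPM with LPS. In KO mice the corresponding values were 114, 122, 123, 123 and 143 CPM and 42.6, 46.0, 53.3, 56.8 and 67.2 CPM. All LPS mice were below all PBS mice, 2.24-fold on average in WT (log2FC -1.16, SE 0.17, adjusted p = 1.49e-05, edgeR) and 2.35-fold in KO mice (log2FC -1.23, SE 0.16, adjusted p = 3.65e-06). Hk1 (ENSMUSG00000037012, chr10:62104621-62215687, minus strand), the hexokinase gene of most tissues and of neurons, had means of 79.0 ± 16.8 (SD, n = 4) CPM with PBS and 61.1 ± 16.3 (SD, n = 5) CPM with LPS in WT mice, which was not called (log2FC -0.37, SE 0.24, adjusted p = 0.25, edgeR). In KO mice the means were 89.5 ± 9.59 (SD, n = 5) and 56.8 ± 20.4 (SD, n = 5) CPM, and Hk1 was called lower (log2FC -0.66, SE 0.23, adjusted p = 0.026, edgeR). The KO groups overlapped by 1 mouse on each side, at 78.1 CPM with LPS and 75.5 CPM with PBS, and the lowest value, 27.1 CPM, was that of KO mouse 5 with LPS. The call was lost without KO mouse 2 with LPS, KO mouse 5 with LPS or KO mouse 5 with PBS (log2FC -0.61, -0.48 and -0.59, edgeR adjusted p = 0.061, 0.052 and 0.065), so that the fold stayed past 0.5 in size except without KO mouse 5 with LPS. The difference between genotypes in the Hk1 response was not called (log2FC -0.29, SE 0.34, adjusted p = 1, edgeR's interaction test).

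Per kilobase of exon, Hk2 made up 55.4% ± 3.77 (SD, n = 4) of the 3 hexokinase transcripts in WT mice with PBS and 79.1% ± 2.27 (SD, n = 5) with LPS, and 55.3% ± 3.11 (SD, n = 5) and 79.9% ± 4.85 (SD, n = 5) in KO mice. The lowest Hk2 share with LPS, 73.6%, was above the highest with PBS, 58.6%. The Hk3 share went from 32.9% ± 0.375 (SD, n = 4) to 12.9% ± 1.98 (SD, n = 5) in WT and from 32.0% ± 1.97 (SD, n = 5) to 12.4% ± 2.66 (SD, n = 5) in KO mice. With the longest transcript in place of all exons, Hk1 and Hk3 were nearly level with LPS, at 13.7% and 13.3% in WT mice. Among the PBS mice Hk2 was higher where the summed microglial markers were higher (Pearson's r = 0.96, exact permutation p = 1.02e-04, adjusted 0.002, Spearman's rho = 0.98, p = 4.96e-05, adjusted 9.33e-04), with r = 0.97 without the 2 farthest mice. In the LPS mice the value did not pass the correction (Pearson's r = 0.56, permutation p = 0.097, adjusted 0.18, Spearman's rho = 0.56, p = 0.096, adjusted 0.23). Hk3 was also higher where the microglial sum was higher in the PBS mice (Pearson's r = 0.87, exact permutation p = 0.0023, adjusted 0.012, Spearman's rho = 0.73, p = 0.031, adjusted 0.12), by r and not by rho, with r = 0.67 without the 2 farthest mice. In the LPS mice Hk3 did not pass (Pearson's r = 0.64, permutation p = 0.048, adjusted 0.12, Spearman's rho = 0.54, p = 0.11, adjusted 0.25), with r = 0.87 without the 2 farthest mice. The microglial sum itself was lower in every LPS mouse than in every PBS mouse, as was Hk3. Hk1 went the opposite way in the PBS mice (Pearson's r = -0.84, exact permutation p = 0.006, adjusted 0.027, Spearman's rho = -0.82, p = 0.011, adjusted 0.048), with r = -0.76 without the 2 farthest mice. In the LPS mice the relation was also negative and passed by rho and not by r (Pearson's r = -0.73, permutation p = 0.015, adjusted 0.05, Spearman's rho = -0.81, p = 0.0072, adjusted 0.036), with r = -0.60 without the 2 farthest mice. Hk1 also moved with the endothelial sum in the LPS mice (Pearson's r = 0.93, permutation p = 4.90e-04, adjusted 0.0039, Spearman's rho = 0.88, p = 0.0018, adjusted 0.016), but r was 0.66 without the 2 farthest mice, 1 of which was KO mouse 5.

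**Figure D2:**
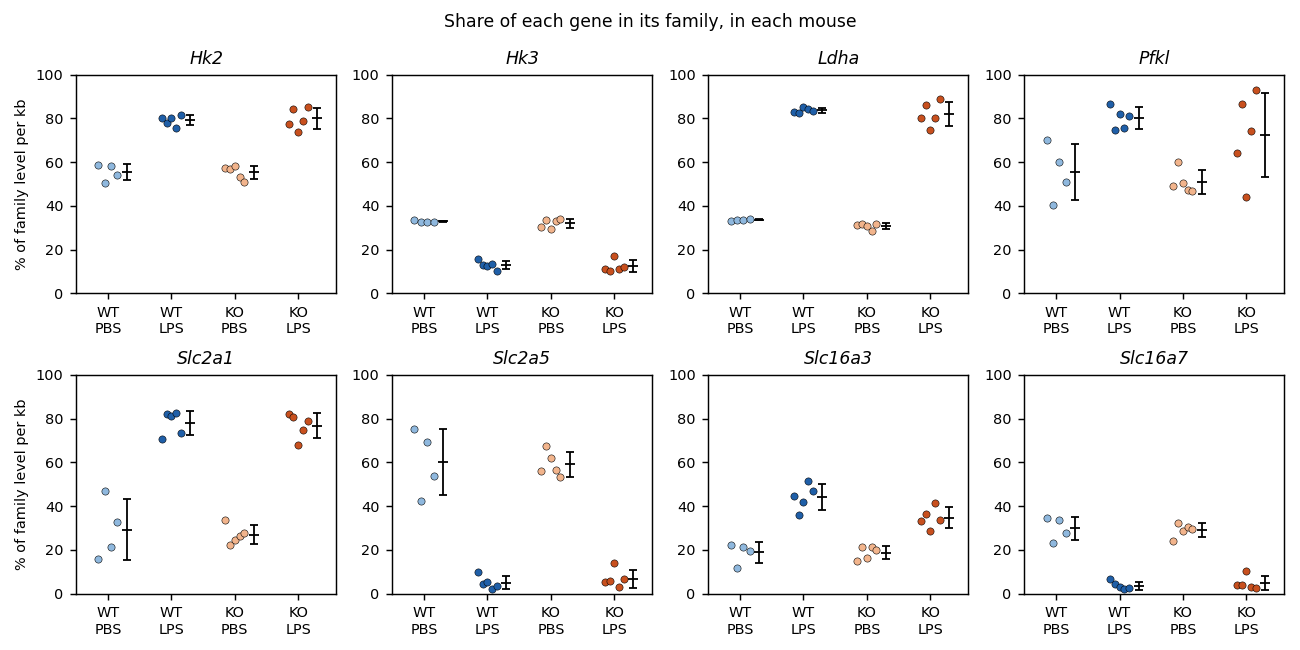
Share of a gene in the summed CPM per kilobase of exon of its family, in percent (axes from 0 to 100), for each mouse. Families are the hexokinase, lactate dehydrogenase, phosphofructokinase, Slc2a and Slc16a genes named in the text, points are mice, and bars are mean ± SD. Hk2, Ldha and Slc2a1 take a larger share with LPS than with PBS in every mouse, Hk3, Slc2a5 and Slc16a7 a smaller one, and Pfkl overlaps in KO mice.

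At the phosphofructokinase step, the regulator rose and the member enzyme gene was not called. Pfkfb3 (ENSMUSG00000026773, chr2:11476244-11558888, minus strand) encodes the kinase that makes fructose-2,6-bisphosphate, the strongest activator of phosphofructokinase. In WT mice it lay at 241, 311, 380.3 and 387 CPM with PBS and at 1517, 1792, 2074, 3538 and 3785 CPM with LPS. In KO mice it lay at 256, 300.2, 349.5, 356 and 399 CPM with PBS and 1666, 2311, 2361, 2761 and 3867 CPM with LPS. The lowest LPS mouse was several times above the highest PBS mouse, and the rise was 7.70-fold in WT (log2FC 2.95, SE 0.30, adjusted p = 2.80e-07, edgeR) and 7.81-fold in KO mice (log2FC 2.97, SE 0.28, adjusted p = 6.33e-08), the largest of the 10 genes in both genotypes. In the PBS mice Pfkfb3 was lower where the endothelial sum was higher (Pearson's r = -0.90, exact permutation p = 0.0013, adjusted 0.0088, Spearman's rho = -0.85, p = 0.0061, adjusted 0.035), with r = -0.65 without the 2 farthest mice. In the LPS mice the relation did not pass the correction (Pearson's r = -0.44, permutation p = 0.21, adjusted 0.33, Spearman's rho = -0.52, p = 0.14, adjusted 0.27), with r = -0.60 without the 2 farthest mice. Pfkfb4, another gene of the family, was called lower in both (log2FC -0.62 and -0.82). Per kilobase, Pfkfb3 took 77.2% ± 1.50 (SD, n = 4) of the 4 Pfkfb transcripts in WT mice with PBS and 97.2% ± 1.42 (SD, n = 5) with LPS. Tigar, whose product breaks fructose-2,6-bisphosphate down, was also called higher, from 8.67 to 21.9 CPM in WT (log2FC 1.34) and from 7.30 to 21.4 CPM in KO mice (log2FC 1.55).

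Pfkp (ENSMUSG00000021196, chr13:6629798-6698970, minus strand), which encodes the platelet-type phosphofructokinase, lay at 11.3, 22.2, 42.5 and 44.8 CPM in WT mice with PBS and 29.3, 42.8, 44.8, 57.2 and 71.6 CPM with LPS. The KO values were 22.4, 29.0, 38.7, 46.8 and 51.1 CPM with PBS and 16.6, 31.1, 53.8, 54.7 and 67.5 CPM with LPS. The groups overlapped in both genotypes, and no change was called (log2FC 0.70, SE 0.41, adjusted p = 0.18 in WT and log2FC 0.25, SE 0.38, adjusted p = 0.63 in KO mice, edgeR). Leaving out 1 mouse, the log2FC in WT ranged from 0.43 without WT mouse 1 to 0.97 without WT mouse 2, both with PBS. With a score of other brain cell markers as a covariate, an alternative chosen after seeing the data, the WT rise was called (log2FC 0.85, edgeR adjusted p = 0.0497). Pfkp was lower where the microglial sum was higher, in the PBS mice (Pearson's r = -0.90, exact permutation p = 3.83e-04, adjusted 0.0038, Spearman's rho = -0.87, p = 0.0045, adjusted 0.03) and in the LPS mice (Pearson's r = -0.83, permutation p = 0.0019, adjusted 0.011, Spearman's rho = -0.95, p = 7.00e-05, adjusted 9.33e-04). Without the 2 farthest mice, r was -0.93 and -0.75. In the LPS mice Pfkp also passed with the endothelial sum by r and not by rho (Pearson's r = 0.78, permutation p = 0.011, adjusted 0.044, Spearman's rho = 0.52, p = 0.13, adjusted 0.27), but that relation rests on the 2 farthest mice, without which r was 0.035. Exons of Pfkp overlap those of Pitrm1 on the opposite strand over 1831 bases, and the strand setting of the counting is not given in the sources used here. The liver-type gene Pfkl, not a member, rose from 90.2 to 287 CPM in WT (log2FC 1.67, SE 0.27, adjusted p = 5.85e-05, edgeR) and from 87.1 to 243 CPM in KO mice (log2FC 1.48, SE 0.25, adjusted p = 7.28e-05). The muscle-type gene Pfkm had log2FC -0.69 and -0.34 and was called in neither. Pfkl was 55.4% ± 12.8 (SD, n = 4) of the 3 phosphofructokinase transcripts per kilobase in WT mice with PBS and 80.1% ± 4.89 (SD, n = 5) with LPS. In KO mice with LPS its share ran from 44.2 to 93.0%, and so overlapped that of the PBS mice.

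**Figure D3:**
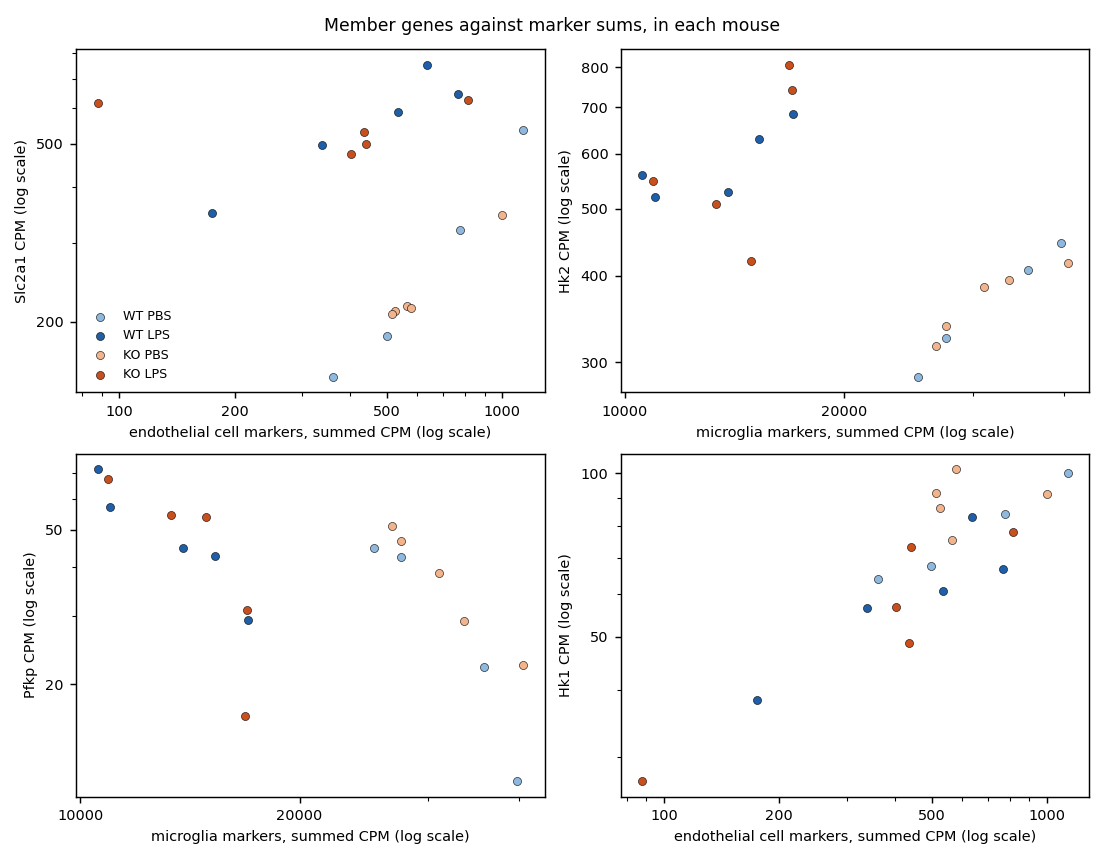
Levels of Slc2a1, Hk2, Pfkp and Hk1 in each mouse against the summed level of endothelial or microglial marker genes, both in CPM on log scales, coloured by genotype and treatment. In the PBS mice Slc2a1 follows the endothelial sum and Hk2 the microglial sum, and Pfkp is lower where the microglial sum is higher, within the PBS and within the LPS mice.

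Pkm and Ldha, the members at the end of the pathway, were higher in every LPS mouse than in every PBS mouse. Pkm (ENSMUSG00000032294, chr9:59563364-59586663, plus strand), the pyruvate kinase gene of brain and immune cells, lay at 283, 293, 299 and 336 CPM in WT mice with PBS and 785, 803, 855, 897 and 948 CPM with LPS. In KO mice it lay at 295, 307, 337, 371 and 389 CPM with PBS and 564, 788, 796, 861 and 918 CPM with LPS. The groups were far apart, with a rise of 2.83-fold in WT (log2FC 1.50, SE 0.13, adjusted p = 5.33e-08, edgeR) and 2.31-fold in KO mice (log2FC 1.21, SE 0.12, adjusted p = 1.97e-07). Gene counts do not separate the PKM1 and PKM2 splice forms, and an unspliced locus of unclear coding status, Gm49759, shares 3157 exon bases with Pkm on the same strand. Ldha (ENSMUSG00000063229, chr7:46490899-46505061, plus strand) encodes the lactate dehydrogenase subunit that favours lactate formation. It lay at 98.1, 100.1, 100.1 and 109 CPM in WT mice with PBS and 371, 408, 411, 481 and 510.5 CPM with LPS, and at 87.4, 88.6, 99.8, 108 and 130.4 CPM and 328, 395, 466, 496 and 515 CPM in KO mice. Ldha had the smallest p of the 10 genes in both genotypes, with a rise of 4.28-fold in WT (log2FC 2.10, SE 0.15, adjusted p = 5.43e-09, edgeR) and 4.28-fold in KO mice (log2FC 2.10, SE 0.14, adjusted p = 1.19e-09). In the PBS mice Ldha was higher where the microglial sum was higher (Pearson's r = 0.75, exact permutation p = 0.013, adjusted 0.047, Spearman's rho = 0.53, p = 0.15, adjusted 0.28), by r and not by rho, with r = 0.46 without the 2 farthest mice. In the LPS mice it did not pass (Pearson's r = 0.03, permutation p = 0.92, adjusted 0.99, Spearman's rho = 0.03, p = 0.95, adjusted 0.95). Ldhb, whose subunit favours pyruvate and which was singled out after its values were seen, fell from 191 to 80.8 CPM in WT (log2FC -1.24) and from 219 to 89.2 CPM in KO mice (log2FC -1.30). Per kilobase, Ldha was 33.6% ± 0.257 (SD, n = 4) of the Ldha and Ldhb transcripts in WT mice with PBS and 83.6% ± 1.23 (SD, n = 5) with LPS. In KO mice it was 30.8% ± 1.39 (SD, n = 5) and 82.0% ± 5.59 (SD, n = 5). The range over both genotypes was 28.4 to 33.8% with PBS and 74.8 to 89.0% with LPS, so the more abundant of the pair differed between the treatments in every mouse.

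Slc16a3 (ENSMUSG00000025161, chr11:120838846-120851694, plus strand) encodes MCT4, the low-affinity transporter that exports lactate. It lay at 37.2, 51.5, 59.0 and 63.1 CPM in WT mice with PBS and 134, 139, 164, 172 and 247 CPM with LPS. In KO mice it lay at 41.5, 45.5, 48.7, 50.5 and 63.0 CPM with PBS and 65.0, 111, 143, 150.4 and 157 CPM with LPS. The groups did not overlap in either genotype, though KO mouse 3 with LPS stood just above the highest PBS mouse. The rise was 3.25-fold in WT (log2FC 1.70, SE 0.24, adjusted p = 1.26e-05, edgeR) and 2.51-fold in KO mice (log2FC 1.33, SE 0.22, adjusted p = 5.88e-05). Exons of Slc16a3 overlap those of Csnk1d on the opposite strand over 4529 bases. Slc16a1, which encodes the broadly expressed carrier MCT1, was called higher in KO mice (log2FC 0.62) and not in WT (log2FC 0.45), with an interaction that was not called (log2FC 0.17). Slc16a7, the gene of the high-affinity carrier MCT2, fell from 111 to 17.8 CPM in WT and from 102 to 19.6 CPM in KO mice (log2FC -2.64 and -2.39). Per kilobase, Slc16a3 took 18.8% ± 4.75 (SD, n = 4) of these 3 carriers in WT mice with PBS and 44.2% ± 5.80 (SD, n = 5) with LPS, and 18.8% ± 3.03 (SD, n = 5) and 34.7% ± 4.65 (SD, n = 5) in KO mice.

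Levels of the 10 genes can be set side by side per kilobase of exon. In WT mice with PBS, Slc2a1 had the highest mean, 63.7 CPM per kb, followed by Hk2 at 44.3, Pfkfb3 at 40.9, Hk3 at 26.2, Pkm at 22.6, Ldha at 21.5 and Hif1a at 19.8 CPM per kb. Hk1 at 9.0, Slc16a3 at 4.66 and Pfkp at 1.83 CPM per kb were lowest. Neighbours in this order from Slc2a1 to Pfkfb3, and from Hk3 to Hif1a, differed by less than the larger of their SDs. With LPS, Pfkfb3 led at 315 CPM per kb, before Slc2a1 at 121, Ldha at 92.1, Hk2 at 70.7, Hif1a at 65.9, Pkm at 63.9, Slc16a3 at 15.1, Hk3 at 11.7, Hk1 at 6.97 and Pfkp at 2.99 CPM per kb. By the same measure Slc2a1 was not apart from Ldha, Hk2 from Hif1a, Hif1a from Pkm, nor Slc16a3 from Hk3. The order depends on the length used. With the longest transcript, Pkm was at 45.8 in place of 22.6 CPM per kb with PBS.

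The genotype made no called difference in any of the 10 genes. KO was called against WT at an unadjusted p below 0.05 with a log2FC of at least 0.5 in size. After LPS, 0 of the 10 genes passed in edgeR, 0 had an unadjusted p below 0.05, and 0 were called by DESeq2, against 1.31% of all genes tested called by that rule and 0.0107% by the adjusted p. With PBS, 0 of 10 passed in edgeR, with 0 at an unadjusted p below 0.05 and 0 called by DESeq2, against 0.8% and 0.00534% of all genes. A p above the threshold does not show equal levels, and the 95% intervals give the sizes these data allow. After LPS the interval of the log2FC of KO against WT was -0.26 to 0.53 for Hif1a, -0.51 to 0.57 for Pfkfb3, -0.27 to 0.29 for Ldha, -0.38 to 0.13 for Pkm, -0.30 to 0.40 for Hk2, -0.42 to 0.24 for Hk3, -0.59 to 0.38 for Hk1, -0.62 to 0.53 for Slc2a1 and -0.92 to 0.66 for Pfkp. It was widest for Pfkp and narrowest for Pkm. The gene nearest to the threshold was Slc16a3, with 125 ± 38.1 (SD, n = 5) CPM in KO and 171 ± 45.2 (SD, n = 5) CPM in WT mice with LPS. Its groups overlapped, and its log2FC was -0.45 (SE 0.22, 95% interval -0.90 to 0.00, unadjusted p = 0.051 and adjusted p = 1 in edgeR). Leaving out KO mouse 2, 4 or 5 or WT mouse 1 or 2 with LPS brought Slc16a3 past the rule, with log2FC from -0.55 to -0.51 and an unadjusted p in edgeR from 0.029 to 0.042, but an adjusted p of 0.97 to 1. Without WT mouse 4, the highest of its group, or KO mouse 3, the lowest, the log2FC was -0.28 or -0.29.

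**Figure D4:**
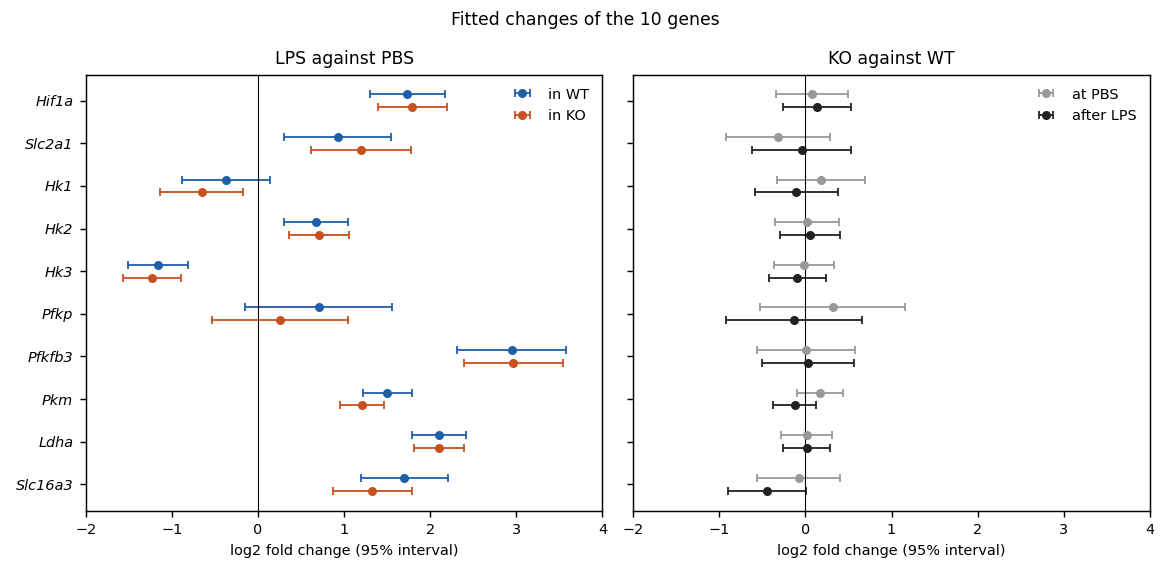
Fitted log2 fold changes of the 10 genes with 95% intervals, on the left for LPS against PBS in WT and KO mice, and on the right for KO against WT with PBS and after LPS. On the left, the intervals of 7 genes lie above 0 and that of Hk3 below 0 in both genotypes, and the intervals of Pfkp include 0. On the right, every interval includes 0, and that of Slc16a3 after LPS, -0.90 to 0.00, only just.

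With PBS, the KO and WT means were close in most genes, at 174 ± 21.5 (SD, n = 5) and 165 ± 17.8 (SD, n = 4) CPM for Hif1a and 332 ± 54.9 (SD, n = 5) and 329.9 ± 68.3 (SD, n = 4) CPM for Pfkfb3. The farthest from 0 were Slc2a1 (log2FC -0.32, 95% interval -0.93 to 0.29) and Pfkp (log2FC 0.32, 95% interval -0.53 to 1.16). Leaving out 1 mouse, the log2FC of Slc2a1 ranged from -0.54 to 0.13. The highest was without WT mouse 2 with PBS, the mouse with the highest endothelial sum, 1136 CPM. The interaction of genotype and LPS was called in 0 of the 10 genes by edgeR's adjusted p, and in 0% of all genes. By edgeR 0 of the 10 had an unadjusted p below 0.05, as had 180 of 18739 genes, and DESeq2 called 0 members. Its smallest unadjusted p among the 10 was 0.11, for Pkm, whose rise was 2.83-fold in WT and 2.31-fold in KO mice (edgeR interaction log2FC -0.29, 95% interval -0.66 to 0.08).

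The rest of the pathway was described with 8 lists of genes that together held 141 genes, of which 127 were tested. Beside the counts of these lists stand the shares of all genes called with LPS, 18.4% higher and 17.4% lower in WT and 20.1% and 19% in KO mice. A count near or under those shares is not a result about its list. Among the glycolytic enzymes, 20 of 27 genes were tested, and in WT mice 12 were called higher and 3 lower with LPS (median log2FC 0.65). In KO mice 9 were higher and 4 lower (median 0.46). Of the 14 tested enzymes that are not members, 9 rose and 2 fell in WT, and 6 rose and 2 fell in KO mice. Gapdh (log2FC 0.98 and 0.77 in WT and KO mice) and Pgk1 (1.50 and 1.14), which act in the second stage of glycolysis, rose in both. Aldoa, named after its values were seen (0.55 and 0.34), Gpi1 (0.63 and 0.32) and Eno1 (0.62 and 0.34) passed the rule in WT and not in KO mice. Eno3, which encodes the muscle enolase, fell from 14.3 to 4.09 CPM in WT (log2FC -1.80). The interaction was called in 0 of the 20 enzymes by edgeR, with 0 at an unadjusted p below 0.05 and 0 called by DESeq2. Its log2FC was above 0 in 4 of the 20 (median -0.20), against 9670 of 18739 genes (median 0.01). The log2FC of KO against WT was above 0 in 16 of the 20 with PBS (median 0.17) and in 8 after LPS (median -0.08). Over all 18739 genes it was above 0 in 9495 with PBS and 9989 after LPS, and over the 127 list genes in 86 and 55. For the interaction, the other lists ranged from 0 of 8 pentose phosphate genes (median -0.15) to 4 of 6 genes of fructose-2,6-bisphosphate and gluconeogenic control (0.06), with 3 of 17 tricarboxylic acid cycle genes (-0.08), 4 of 15 genes of pyruvate entry (-0.11) and 38 of all 127 list genes (-0.09) above 0. These shares were not tested.

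**Figure D5:**
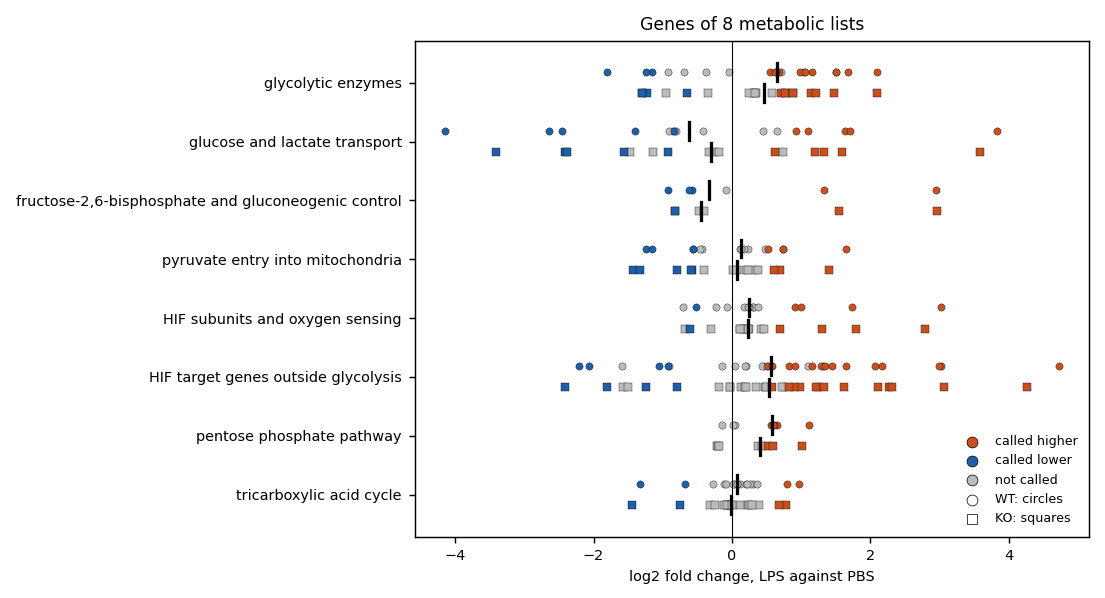
Log2 fold changes of LPS against PBS for every tested gene of 8 metabolic lists, as circles for WT and squares for KO mice. Orange marks genes called higher, blue genes called lower, grey genes not called, and black bars are list medians. In WT and KO mice, the medians are 0.08 and -0.02 for the tricarboxylic acid cycle genes, and 0.65 and 0.46 for the glycolytic enzymes. Those of the HIF target genes are 0.57 and 0.53. In WT mice 12 of 17, 13 of 20 and 23 of 30 of these genes lie above 0.

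In the list of glucose and lactate transport, 5 of 16 tested genes were called higher and 5 lower in WT, and 5 and 5 in KO mice. Its median was -0.62 and -0.30. Slc2a8, which encodes an intracellular carrier, fell in both (log2FC -2.46 and -2.42). Of the genes called that are not named above, and that were picked out after their values were seen, Slc2a9 (log2FC -1.40 and -1.57) and Bsg, the gene of the chaperone of lactate carriers (-0.84 and -0.93), fell in both genotypes, and Slc2a10 was called higher in WT mice alone (1.09 and 0.73). Of the 6 tested genes of fructose-2,6-bisphosphate and gluconeogenic control, 2 rose and 3 fell in WT, and 2 rose and 2 fell in KO mice (median -0.34 and -0.44). Those that rose were Pfkfb3 and Tigar. Pck2, the gene of the mitochondrial carboxykinase, fell (log2FC -0.92 and -0.83), as did Pfkfb4, and Pfkfb2, named after its values were seen, was called lower in WT mice alone (-0.58 and -0.40). Of the 15 genes of pyruvate entry into mitochondria, 4 rose and 4 fell in WT, and 3 and 5 in KO mice (median 0.13 and 0.08), against 18.4% and 17.4% of all genes in WT and 20.1% and 19% in KO mice. The genes of the pyruvate dehydrogenase kinases split. Pdk1, a known HIF-1 target, fell from 152 to 64.2 CPM in WT and from 163 to 60.8 CPM in KO mice (log2FC -1.24 and -1.43), as did Pdk2 (-1.16 and -1.33). Pdk4 rose from 6.00 to 18.7 CPM in WT and from 7.18 to 18.9 CPM in KO mice (log2FC 1.64 and 1.40). Pdk3 was called higher in WT mice alone (0.74 and 0.38). The others that were called, picked out after their values were seen, were Dld (0.74 and 0.69) and Pdhx (0.52 and 0.61), higher in both, Mpc1 (-0.57 and -0.58) and Pdpr (-0.56 and -0.79), lower in both, and Mpc2, lower in KO mice alone (-0.43 and -0.59). Pdk3 had the lowest p of KO against WT with PBS among the list genes, with means of 22.1 and 16.9 CPM in groups that did not overlap. Its log2FC of 0.39 (SE 0.12) missed the fold threshold (unadjusted p = 0.0051, adjusted p = 1 in edgeR).

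In the pentose phosphate pathway, 5 of 8 tested genes rose and 0 fell in WT, and 3 rose and 0 fell in KO mice (median 0.58 and 0.40). Pgd, the gene of the second oxidative step, rose the most (log2FC 1.12 and 1.01). Rpe (0.66 and 0.52) and Rpia (0.60 and 0.59) rose in both, and Tkt (0.59 and 0.43) and, named after its values were seen, G6pdx (0.56 and 0.37), the gene of the first oxidative step, were called in WT mice alone. Of the 17 tricarboxylic acid cycle genes, 2 rose and 2 fell in each genotype, a smaller part than of all genes (18.4% and 17.4% in WT mice). Idh3a and Mdh2 rose (log2FC 0.96 and 0.79 in WT mice), and Idh2 and Idh3g fell (-1.32 and -0.68). Across the 8 lists, 0 of 127 genes were called by edgeR for KO against WT after LPS or with PBS, and 0 were called by DESeq2. In each of these 1 gene had an unadjusted p below 0.05 in edgeR, namely Kdm4b after LPS (log2FC -0.21, named after its values were seen) and Pdk3 with PBS. The interaction was called in 0 of 127 by edgeR, with 1 at an unadjusted p below 0.05, Pdk3 (log2FC -0.37), and in 0 by DESeq2. These tests share their control mice, so that Pdk3 in the PBS comparison and in the interaction is not independent.

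Of the 15 genes of HIF subunits and oxygen sensing, 4 rose and 1 fell in each genotype (median 0.25 in WT and 0.22 in KO mice), against 18.4% and 17.4% of all genes in WT and 20.1% and 19% in KO mice. Beside Hif1a, Hif3a, which encodes a subunit with inhibitory forms, rose from 7.08 to 57.5 CPM in WT (log2FC 3.02) and from 5.46 to 37.6 CPM in KO mice (log2FC 2.78). Epas1, which encodes HIF-2α and is prominent in endothelium, had log2FC -0.71 and -0.68 and was not called, nor was Arnt, the gene of the partner subunit (0.30 and 0.42). Of the prolyl hydroxylase genes, Egln2 (log2FC 0.92 and 0.70) and Egln3 (1.00 and 1.30) rose, Egln3 from 1.70 CPM, and Egln1 was not called (0.23 and 0.12). Vhl, the gene of the von Hippel-Lindau protein, fell (log2FC -0.53 and -0.61). Among known HIF target genes outside glycolysis, 16 of 30 tested genes rose and 4 fell in WT, and 13 rose and 4 fell in KO mice (median 0.57 and 0.53). The inducible nitric oxide synthase gene Nos2 rose from 1.39 to 36.5 CPM in WT, the adrenomedullin gene Adm from 0.957 to 7.85 CPM and the lysyl oxidase gene Lox from 2.17 to 17.3 CPM. Nos2 is also a known target of NF-κB. Zfp395 fell from 34.0 to 7.29 CPM. In KO mice their log2FC were 4.26 for Nos2, 3.06 for Adm, 2.31 for Lox and -2.42 for Zfp395. The other genes that fell in both genotypes, picked out after their values were seen, were Bnip3l (-1.06 and -1.24), Mxi1 (-0.93 and -0.79) and Ccng2 (-2.07 and -1.80). Vegfa, which encodes the angiogenic growth factor, was called higher in WT (log2FC 0.82) and not in KO mice (0.47), and the difference between them was not called (interaction log2FC -0.35, SE 0.41).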

How the data were processed

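CD11b+ cells were enriched with magnetic beads from the brains of 19 mice, without the olfactory bulb and cerebellum, and total RNA was sequenced after ribosomal RNA depletion. The authors trimmed reads with Cutadapt, aligned them with STAR (2.7.9a per the labels) to GRCm39 and deposited 1 table of raw counts per gene, with no normalization. The strand setting of the counting is not given in the sources used here. Gene names and positions came from GENCODE M39, which named 56236 of 56980 identifiers. Samples were grouped by their labels, and no label gives a sequencing batch.

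From these counts, edgeR (4.0.16, R 4.3.3) kept 18739 genes with filterByExpr (minimum count 10, minimum total 15), scaled libraries by TMM and fitted all 4 groups at once with the quasi-likelihood test. P-values were adjusted by Benjamini-Hochberg over all genes tested. For LPS against PBS a call needed an adjusted p below 0.05 and a log2FC of at least 0.5 in size. For KO against WT, where the authors used an unadjusted p, a call needed an unadjusted p below 0.05 and the same log2FC. The interaction was called at an adjusted p below 0.05. Libraries held 11936364 to 22788884 counts, and each floor of 3 counts covers counting error only. Levels are CPM, per kilobase of merged exons where genes are compared. No 2 libraries of a group agreed within sampling noise. Relations with marker sums used permutation tests, two-sided, exact with 9 mice and with 100000 draws with 10.

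The 10 genes, the 8 pathway lists and the marker lists were chosen with earlier results of these data known. Genes named outside the 10 are the 4 of a list with the largest log2FC in WT mice among those called in either genotype, and a few key genes of each list. Others are said to have been chosen after their values were seen. Alternatives were other scalings, no low-count filter, DESeq2 (1.42.0), the 2 groups alone, a block or covariate for the animal number, no mitochondrial or ribosomal RNA genes, a marker covariate, and leaving out 1 mouse at a time. The script was tested on simulated data.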

Additional observations from a re-analysis of the deposited data

Results flagged for a closer look

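Among 40 sets of values, the 10 genes in each of the 4 groups, 1 held a mouse that stood apart from the rest of its group by Dixon's test on log2 CPM, and chance alone gives about 1 in 20 such sets. It was Slc2a1 in KO mouse 1 with PBS, at 346.7 CPM, against 208 to 217 CPM in the other 4. The gap to the nearest mouse was 0.917 of the range of the group. The summed endothelial markers of the same mouse were 1001 CPM, the highest of the KO mice with PBS, against 514 to 577 CPM in the other 4. Their part in the Slc2a1 value was not tested.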

How the results depend on the processing

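For LPS against PBS, the 10 log2FC kept their direction under every alternative run, and 297 of 300 values in each genotype kept their side of the threshold. The others are the calls of Slc2a1 in WT and Hk1 in KO mice lost without 1 mouse, and that of Pfkp in WT mice gained with a covariate, given in the report. Leaving out 1 mouse, the number of genes called lower in KO mice was 1 to 2, and that called lower in KO against WT after LPS was 0 to 1 (Slc16a3). For KO against WT after LPS, the log2FC that took the other sign were with other brain cell markers as covariate Slc2a1 at 0.047 and Pfkfb3 at -0.05, without 2 KO LPS libraries (mice 1 and 5) Hk2 at -0.034, Pfkp at 0.05, Pfkfb3 at -0.035 and Ldha at -0.078, with the animal number as covariate Pfkfb3 at -0.06, with upper quartile scaling Ldha at -0.005, with no low-count filter Ldha at -0.007. Leaving out 1 mouse at a time, those that changed sign ranged as Hif1a -0.004 to 0.354, Slc2a1 -0.174 to 0.079, Hk1 -0.243 to 0.072, Hk2 -0.076 to 0.156, Hk3 -0.205 to 0.053, Pfkp -0.327 to 0.076, Pfkfb3 -0.16 to 0.218, Ldha -0.05 to 0.102. For KO against WT with PBS, the log2FC that took the other sign were with size factors Hk2 at -0.004 and Pfkfb3 at -0.014, with upper quartile scaling Hk2 at -0.01, Pfkfb3 at -0.012 and Ldha at -0.01, with no low-count filter Hk2 at -0.017, Pfkfb3 at -0.027 and Ldha at -0.004, in DESeq2 Hk2 at -0.004 and Pfkfb3 at -0.014, with the replicate block Hk3 at 0.001 and Pfkfb3 at -0.116, with the animal number as covariate Hk3 at 0.014 and Pfkfb3 at -0.148, with other brain cell markers as covariate Hk3 at 0.003. Leaving out 1 mouse at a time, those that changed sign ranged as Hif1a -0.003 to 0.142, Slc2a1 -0.537 to 0.131, Hk2 -0.079 to 0.127, Hk3 -0.083 to 0.069, Pfkfb3 -0.108 to 0.095, Ldha -0.086 to 0.069, Slc16a3 -0.211 to 0.019. For the interaction, the log2FC that took the other sign were with other brain cell markers as covariate Hk2 at -0.035 and Pfkfb3 at -0.083, without 2 KO LPS libraries (mice 1 and 5) Hk2 at -0.052 and Pfkfb3 at -0.045, with size factors Ldha at 0.026, with upper quartile scaling Ldha at 0.006, in DESeq2 Ldha at 0.026. Leaving out 1 mouse at a time, those that changed sign ranged as Hif1a -0.079 to 0.279, Slc2a1 -0.179 to 0.494, Hk2 -0.093 to 0.139, Hk3 -0.186 to 0.072, Pfkfb3 -0.17 to 0.208, Ldha -0.064 to 0.099. None of these values was called, and the cause of the changes of sign was not tested. The other brain cell covariate and the removal of the 2 libraries were added after seeing the data. Upper quartile scaling shifted the median log2FC of all genes from -0.063 to -0.164 in WT and from -0.010 to -0.107 in KO mice. The calls of the 10 genes were the same under it. Over all genes, KO against WT gave 102 higher and 143 lower after LPS and 42 and 108 with PBS. With no low-count filter these were 347, 507, 241 and 439, in DESeq2 209, 262, 109 and 223, with the 2 groups alone 36, 69, 28 and 117, and with other brain cell markers as covariate 131, 243, 86 and 189. Leaving out 1 mouse moved them by over 1.5 times after LPS without KO mouse 1 with LPS (204 and 146) or KO mouse 5 with LPS (164 and 270), and with PBS without WT mouse 2 (94 and 81), WT mouse 4 (72 and 67) or KO mouse 3 (41 and 67) with PBS. Without both KO mice 1 and 5 with LPS they were 137, 221, 53 and 178, and with the animal number as covariate 113, 174, 39 and 214. Mice that share a number are different animals, and the correlation of the deviations of same-numbered mice was 0.027 to 0.544 between KO mice with LPS and with PBS (4 of 5 over 0.1), -0.042 to 0.576 between WT mice with LPS and with PBS (3 of 4 over 0.1), and -0.58 to 0.421 across genotypes. Not every pair was over 0.1, so the numbers were not taken to pair the mice, and not every mouse correlated best with its own number (at most 3 of 5). With the replicate block as an alternative, the counts over all genes were 3355 higher and 3113 lower in WT and 3704 and 3573 in KO mice with LPS, 78 and 154 for KO against WT after LPS and 45 and 189 with PBS, and no call of the 10 genes changed. With at least 216 counts for each of the 10 genes in each mouse, depth limits their values less than the spread between mice does. Gene counts cannot separate transcripts or overlapping genes.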
